A study of Mus musculus with 12 samples.

Results

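The 10 genes Pdgfra, Dcn, Lum, Tnxb, Dpt, Fbln1, Pi16, Clec3b, Sox9 and Osr2, used as markers of the fibroblasts of peripheral nerve, were followed in bulk RNA of mouse sciatic nerve. They were taken by symbol from the deposited count table. Each symbol stood on 1 line, so the set holds 10 of 38087 gene models, and all 10 were among the 22384 models with enough counts to test. RNA was sequenced in 12 libraries, 3 in each of 4 groups, described as biological replicates. The groups were dKO nerve at 5 days after transection (5DPI), control nerve at 5 days, dKO intact nerve and control intact nerve. The dKO mice were Dhh-Cre+:Tfebflox/flox;Tfe3KO. They lacked Tfe3 in all cells, fibroblasts included, and lost Tfeb where the Dhh promoter drove Cre. Control mice were Dhh-Cre-:Tfebflox/flox;Tfe3+, so both genotypes carried the floxed Tfeb alleles. Age and sex are not given in the labels. Injured nerve was the distal stump 5 days after the cut, with the tissue next to the injury trimmed off. Intact nerve was the uncut nerve on the other side of injured mice. The epineurium was taken off intact nerves, while the labels do not mention its removal from injured nerves, so injury and this dissection step cannot be told apart in any comparison of injured with intact nerve.

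A peripheral nerve holds fibroblasts in separate compartments. The epineurium, the outer sheath, contains fibroblasts, fat and vessels, the perineurium wraps each bundle of axons, and the endoneurium lies between the axons and their Schwann cells. Fibroblasts carry the receptor Pdgfra and lay down the collagen-binding matrix of all these layers, and after injury they take part in bridging the wound and in signalling to Schwann cells. In single-cell studies of mouse nerve, Pi16, Dpt and Clec3b are known mainly from epineurial fibroblasts and Sox9 and Osr2 from endoneurial ones, while Pdgfra, Dcn and Lum are shared. Dhh is made by Schwann cells, and the Dhh-Cre lineage is known to include part of the endoneurial fibroblasts. TFEB and TFE3 are related transcription factors of lysosome and autophagy genes that bind the E-box CACGTG.

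Promoter sequence is shown for 4 members on which the results turn: Tnxb, which differed in 3 comparisons, and Fbln1, Dpt and Pi16. In each control group these last genes were lowest in the same library, as was Tnxb. The windows are the 250 bases before the RefSeq start site on GRCm38.p6, the patch release of the mm10 assembly, all on the plus strand. They are chr17:34670285-34670534 for Tnxb, chr15:85205699-85205948 for Fbln1, chr1:164796413-164796662 for Dpt and chr17:29318632-29318881 for Pi16. Capitals mark matches on either strand to the searched motifs, which were the E-box CACGTG, its variant CATGTG, the AP-1 motif TGANTCA, the TATA box TATAAA and the TEAD motif CATTCC.
Tnxb: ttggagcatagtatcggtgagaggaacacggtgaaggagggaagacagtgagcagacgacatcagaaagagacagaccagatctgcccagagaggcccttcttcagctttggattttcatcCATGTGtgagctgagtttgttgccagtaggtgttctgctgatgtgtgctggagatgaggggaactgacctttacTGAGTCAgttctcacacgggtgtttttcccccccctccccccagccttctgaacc
Fbln1: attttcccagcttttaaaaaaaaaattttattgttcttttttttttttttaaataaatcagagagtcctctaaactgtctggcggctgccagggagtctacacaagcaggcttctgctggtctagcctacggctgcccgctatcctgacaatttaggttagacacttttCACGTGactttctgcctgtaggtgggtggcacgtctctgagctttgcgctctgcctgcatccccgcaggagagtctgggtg
Dpt: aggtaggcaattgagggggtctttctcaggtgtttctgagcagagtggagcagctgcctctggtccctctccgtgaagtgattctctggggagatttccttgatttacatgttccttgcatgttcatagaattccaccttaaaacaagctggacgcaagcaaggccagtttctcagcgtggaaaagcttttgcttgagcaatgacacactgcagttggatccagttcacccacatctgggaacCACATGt
Pi16: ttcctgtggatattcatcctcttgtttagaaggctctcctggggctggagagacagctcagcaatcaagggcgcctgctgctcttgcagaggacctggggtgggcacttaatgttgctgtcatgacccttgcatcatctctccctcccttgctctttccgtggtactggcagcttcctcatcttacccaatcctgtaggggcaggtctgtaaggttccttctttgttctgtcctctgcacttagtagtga
The E-box CACGTG stood once before Fbln1, at -81 from the start site used here, and in no other of these windows. RefSeq also lists a later start site of Fbln1, from which the same E-box stands at -140. Of all 32851 promoter windows of this length in the table, 6.02% held it. CATGTG stood at -129 in the Tnxb window and at -7, on the minus strand, in the Dpt window, and 12.3% of all windows held it. The AP-1 motif stood at -55 in the Tnxb window, against 6.75% of all windows. None of the 4 held TATAAA or CATTCC, which 12.4% and 12.6% of all windows held. No match overlapped another, and the Pi16 window held none of the 5 motifs. Pdgfra was the only other member in the table, and its window also held none of the 5. These are matches of letters and show no binding.

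Total counts per library ran from 15430999 to 35845371, and a member had between 364 and 88568 counts in a library. Myelinating Schwann cell markers, which define this tissue, summed to between 79630 and 104200 counts-per-million units (CPM, with library sizes scaled by TMM, which evens out differences in composition) in intact nerve. Tfeb stood at 14.2 to 29.8 CPM in dKO and 18.2 to 24 CPM in control nerve at 5 days, and Tfe3 at 49.5 to 53.8 and 55 to 67.6 CPM. In intact nerve Tfeb stood at 17 to 19.5 CPM in dKO and 22.6 to 26.9 CPM in control, and Tfe3 at 43.3 to 47.4 and 56.7 to 62.1 CPM. Neither gene passed the test in either comparison of genotypes (adjusted p = 0.126 to 0.883, edgeR). Which exons the alleles lack is not given in the sources used here, so counts over whole genes do not check the deletion. The 3 dKO libraries at 5 days and control 5DPI replicate 4 held reads on 174 to 366 olfactory receptor genes at equal depth, against 54 to 74 in the other 8 libraries. These 4 libraries are called the second library set below, and among injured nerves this set nearly coincides with genotype. In dKO nerve the set coincides with injury, since it holds every injured and no intact dKO library. Control 5DPI replicate 1 was the only library with high Xist, at 10712 counts against at most 23 elsewhere. Its summed counts of the Y-linked genes Ddx3y, Eif2s3y, Uty and Kdm5d were the lowest, at 244 against 1907 to 3724 elsewhere. By these genes it was unlike every other library, with Xist as in female tissue, though some Y-linked counts remained. Whether it held RNA of both sexes was not tested. Sex and other features of this library cannot be told apart. In control intact replicate 2 the summed markers of fat, perineurial and endothelial cells and of pericytes were the lowest of the 6 intact nerves, at 425, 1720, 749 and 634 CPM against at least 1032, 2895, 1145 and 998 CPM. The members' calls, and the calls of related fibroblast genes between genotypes at 5 days where they change, are also given without these 2 libraries, an alternative chosen after seeing the data. Except in intact nerve, the share of all models that passed in that fit is not given here. Its counts of calls are therefore not read as results about the members or the lists. In bulk RNA, fewer cells of a type and less RNA per cell cannot be told apart.

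All 10 markers were present in every library, and the proteoglycan decorin was the most abundant by far. Per kilobase of exon, Dcn, which coats collagen fibrils, stood at 405 ± 52.1 CPM per kb in dKO and 339 ± 40.9 CPM per kb in control nerve at 5 days, and at 439 ± 48.2 CPM per kb in dKO and 406 ± 107 CPM per kb in control intact nerve (SD, n = 3 each). At 5 days in dKO nerve the order of levels per kb after Dcn was Lum (181 ± 25.9), Clec3b (161 ± 21.5), Dpt (134 ± 1.58), Pi16 (46.9 ± 9.53), Tnxb (45.9 ± 3.31), Fbln1 (35.5 ± 6.82), Sox9 (15.9 ± 1.59), Pdgfra (8.96 ± 0.966) and Osr2 (8.78 ± 2.07 CPM per kb). Lum and Clec3b, Pi16 and Tnxb, and Pdgfra and Osr2 are neighbours in that order that lie within each other's spread. The transcription factors Sox9 and Osr2 and the receptor Pdgfra were thus the lowest members, and the secreted matrix proteins the highest. Dcn and Lum, both small leucine-rich proteoglycans that regulate collagen fibrils, lie 46984 bases apart on chromosome 10 (mm10) on the same strand. Exons of Pdgfra and Pi16 overlap genes on the opposite strand by 456 and 222 bases (Gm42802 and AC162182.1), and whether counting used strand is not given in the sources used here.

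**Figure D1:**
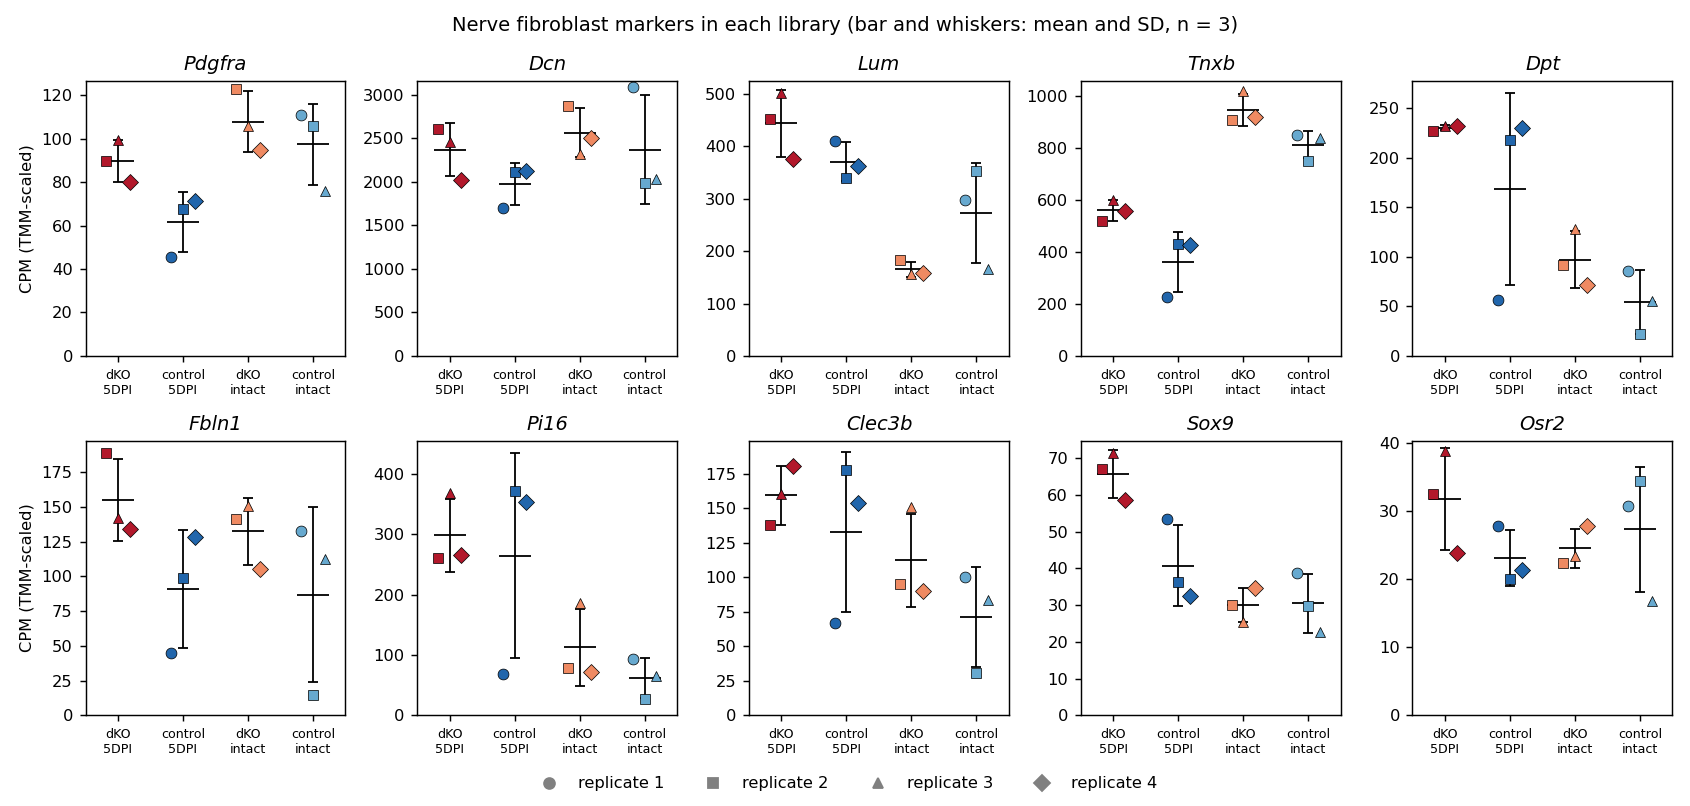
Level of each of the 10 fibroblast markers in every library, in TMM-scaled CPM (vertical axis, from 0), by group, with 1 point per library and the group mean with its SD. Tnxb sits lower in both injured groups than in both intact groups, while Pi16, Dpt, Fbln1 and Clec3b each have a low point in both control groups.

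The first comparison asked how loss of both factors changed the markers in injured nerve. At 5 days Tnxb and Sox9 were higher in dKO nerve and no member was lower. A gene passed where its p in edgeR's quasi-likelihood test, adjusted over all tested models by Benjamini-Hochberg, was under 0.05, and log2 fold changes are the first group named over the second, with their standard error (SE). Of the 10 members 2 passed the test, or 2 higher and 0 lower, where 12.1% of all tested models passed (3.12% higher and 8.97% lower). All 10 log2 fold changes were above 0, with a median of 0.46, against 48.2% of all models and a median of -0.02. Tnxb encodes tenascin-X, a large glycoprotein that links collagen fibrils, and lies on chromosome 17 at 34670535 to 34719815 (mm10, plus strand). Tnxb counts were 520.3, 601 and 559 CPM in dKO nerve, against 229, 432 and 425 CPM in control nerve. All 3 dKO libraries were above all 3 control libraries, and control 5DPI replicate 1 was well below the others. The log2 fold change was 0.63 (SE 0.18, adjusted p = 0.0393, edgeR). Sox9, a transcription factor that also acts in neural crest and cartilage, lies on chromosome 11 at 112782224 to 112787760. It stood at 66.99, 71.5 and 58.5 CPM in dKO nerve, against 53.4, 36.4 and 32.6 CPM in control nerve. The groups did not overlap, and here the control library nearest to dKO was replicate 1. Sox9 was higher by a log2 fold change of 0.69 (SE 0.21, adjusted p = 0.0459, edgeR).

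Both calls lay near the threshold. Leaving out 1 library at a time, Tnxb lost its call in 7 of 12 fits (adjusted p = 0.0241 to 0.125 over the 12, edgeR): without control intact replicate 3, dKO intact replicates 3 or 4, control 5DPI replicate 1, or any 1 dKO library at 5 days. Sox9 lost it in 8 (adjusted p = 0.0114 to 0.152, edgeR): without any 1 dKO library, intact or injured, or control 5DPI replicates 2 or 4. With a term for that set, which rests on control 5DPI replicate 4 alone among controls and was added to the alternatives with earlier results known, 0 members passed. Tnxb then had a log2 fold change of 0.40 (adjusted p = 0.626, edgeR) and Sox9 of 1.01 (adjusted p = 0.128, edgeR). Without control 5DPI replicate 1 and control intact replicate 2 the same 2 members passed, with Tnxb at 0.38 (adjusted p = 0.0282, edgeR) and Sox9 at 0.93 (adjusted p = 0.0104, edgeR). Without control 5DPI replicate 1 alone the Tnxb change was also 0.38, and the call was lost. Control intact replicate 2 is in neither compared group, so leaving it out acts here only through estimates shared by all libraries, such as the spread. The Tnxb call without both libraries is therefore not read as support.

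Pdgfra, the receptor that marks fibroblasts, on chromosome 5 at 75152292 to 75198215, missed the threshold narrowly. It stood at 89.9, 99.4 and 80.1 CPM in dKO nerve, against 45.7, 67.6 and 71.1 CPM in control nerve. The groups did not overlap, and control replicate 1 was again the lowest. Its log2 fold change was 0.55 (SE 0.18, adjusted p = 0.0591, edgeR), and DESeq2 gave 0.58 with an adjusted p of 0.0236. Fbln1, the matrix protein fibulin-1, stood at 189, 142 and 134 CPM in dKO nerve, against 45.1, 99.05 and 129 CPM in control nerve, and was the only other member without overlap (log2 fold change 0.77, SE 0.67, adjusted p = 0.505, edgeR). So 4 of 10 members had no overlap between genotypes, all 4 of them higher in dKO nerve, where 30.5% of all models had none, 12.6% higher and 17.9% lower. Among the other 6 members the adjusted p ran from 0.241 (Osr2, log2 fold change 0.46, SE 0.24) to 0.895 (Pi16, 0.17, SE 0.67). Dcn ranged from 2025 to 2611 CPM in dKO and from 1701 to 2123 CPM in control nerve, Lum from 377 to 503 and from 339 to 411 CPM, and Osr2, an odd-skipped zinc finger factor, from 23.9 to 38.9 and from 20.1 to 27.9 CPM. Each of these 3 overlapped between genotypes. Pi16, which encodes a secreted peptidase inhibitor, was at 261, 368.5 and 267 CPM in dKO nerve, against 68.8, 372 and 354 CPM in control nerve. Pi16 was low in replicate 1 of control nerve alone, and without that library the log2 fold change was -0.29 for Pi16 and -0.062 for Clec3b, so that 8 of 10 members were then above 0. Without it the log2 fold change was 0.44 for Fbln1, 0.37 for Pdgfra and 0.035 for Dpt, against 0.45 for Dpt over all libraries. That of Pi16 was also below 0 without dKO 5DPI replicate 3.

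**Figure D2:**
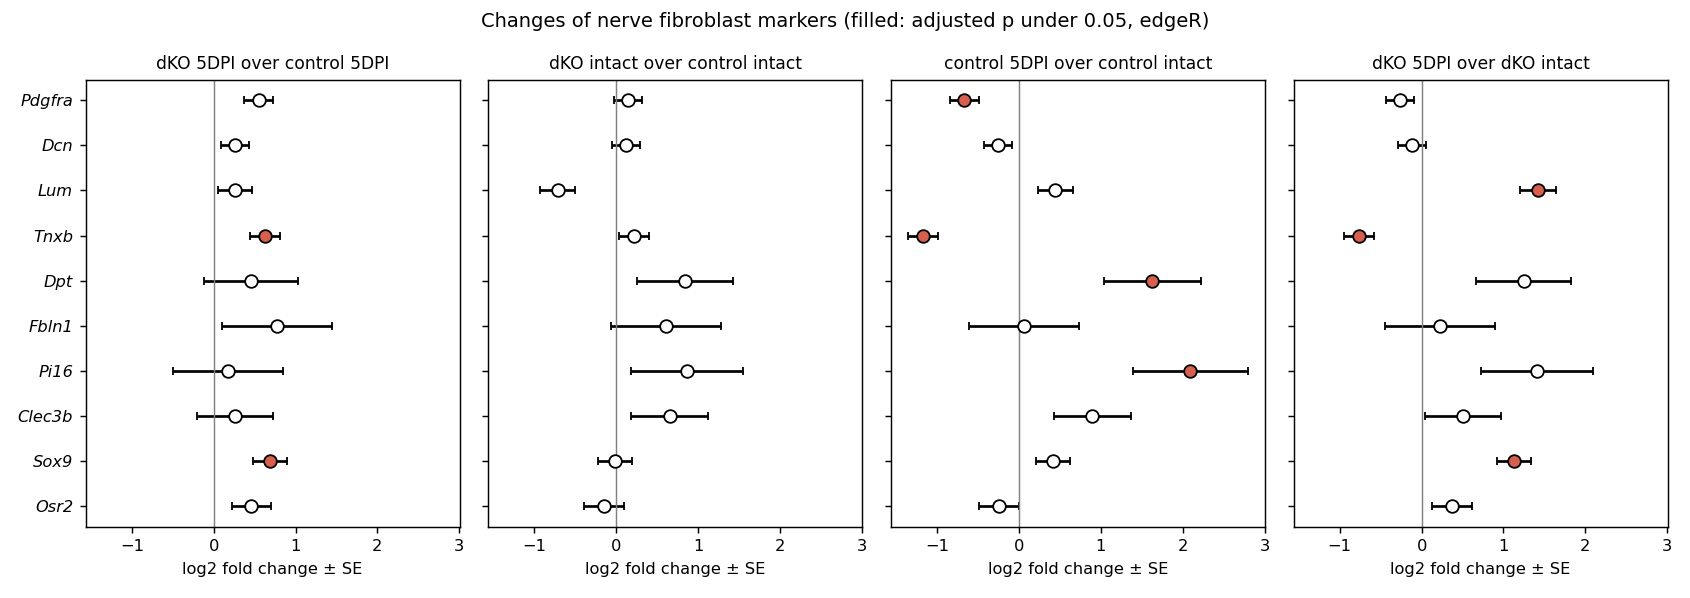
Log2 fold change of each marker (horizontal axis) in each comparison, with bars of 1 standard error from edgeR, and filled points for adjusted p under 0.05. At 5 days all 10 points for genotype lie above 0 with Tnxb and Sox9 filled, and in both injury comparisons Tnxb is filled below 0.

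In intact nerve no member passed the test between genotypes. Of the 10 members 0 passed edgeR, where 0.00447% of all models passed, which is 1 gene (0% higher and 0.00447% lower). DESeq2, limma-voom and limma-trend also called 0 members. At an unadjusted p under 0.05 there was 1 member, Lum, which encodes lumican and lies on chromosome 10 at 97565128 to 97572703. Lum stood at 182, 156 and 159 CPM in dKO intact nerve, against 298, 353 and 167 CPM in control intact nerve. Control intact replicate 3 lay among the dKO libraries, so the groups overlapped. The log2 fold change was -0.72 (SE 0.21, adjusted p = 0.85, edgeR). Tnxb was the 1 member without overlap, at 907, 1019 and 919 CPM in dKO, against 849.6, 752 and 839 CPM in control intact nerve (log2 fold change 0.22, adjusted p = 0.898, edgeR), where 14.6% of all models had no overlap (7.37% higher and 7.18% lower).

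The spread between libraries of 1 group set apart 4 members. In control intact nerve the highest library exceeded the lowest 8.82-fold for Fbln1, 3.98-fold for Dpt, 3.34-fold for Pi16 and 3.26-fold for Clec3b, but 1.13-fold for Tnxb and 1.45-fold for Pdgfra. Fbln1 was at 141, 151 and 105 CPM in dKO intact nerve, against 133, 15.1 and 113 CPM in control intact nerve, so replicate 2 of control intact nerve was far below all others. Dpt, which encodes the decorin-binding protein dermatopontin, was at 92.1, 128 and 71.4 CPM in dKO intact nerve, against 86.0, 21.6 and 55.2 CPM in control intact nerve. Clec3b, which encodes the plasminogen-binding protein tetranectin, was at 95.4, 151 and 90.05 CPM in dKO, against 100, 30.7 and 83.4 CPM in control intact nerve. The same control library was the lowest intact one for all 4 genes, and dKO intact replicate 3 was the highest. At 5 days control replicate 1 was the lowest for all 4 genes, with Dpt at 56.6 CPM against 218 and 230 CPM in the other control libraries and 227, 232 and 232 CPM in dKO nerve. Over the 6 intact libraries Tnxb correlated with Dpt at r = 0.90 and with Pi16 at 0.92 (Pearson, log2 CPM). Over the 6 at 5 days r was 0.93 for Tnxb with Dpt and 0.93 for Pdgfra with Fbln1. Over all 12 it was -0.23 for Tnxb with Dpt and -0.29 with Pi16. The part of this shared spread in the Tnxb and Pdgfra differences was not tested.

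The summed level of Pi16, Dpt, Clec3b and Fbln1, a grouping chosen after these values were seen and given with no test, was 814, 902.5 and 812 CPM in dKO nerve and 238, 867 and 865.5 CPM in control nerve at 5 days. It was 407, 617 and 339 CPM in dKO and 412, 95.15 and 317 CPM in control intact nerve. Control 5DPI replicate 1 and control intact replicate 2 thus stood apart from the rest of their groups by this sum. The summed fat cell markers were also lowest in that intact library, at 425 CPM, but were 3492 CPM in control 5DPI replicate 1, against 2180 and 3596 CPM in the other control libraries at 5 days. The part of either library's cell makeup in these values was not tested.

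**Figure D3:**
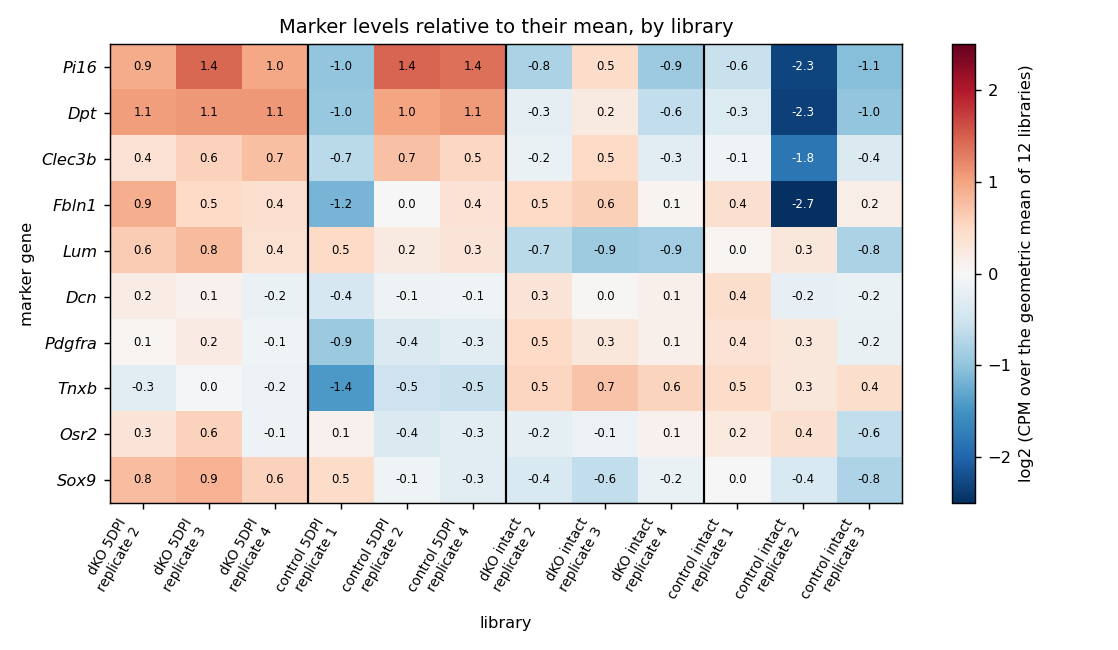
Level of each marker in each library relative to its own geometric mean over all 12 libraries, as log2 of the CPM ratio (colour and number), with libraries in columns by group and markers in rows. Pi16, Dpt, Fbln1 and Clec3b are low together in control intact replicate 2 and are lower in control 5DPI replicate 1 than in the other injured libraries.

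The next comparison set injured control nerve against intact control nerve. Tnxb and Pdgfra were lower after injury, and Pi16 and Dpt were higher. Pi16, Dpt and Clec3b are known mainly from epineurial fibroblasts, and the epineurium was taken off intact nerves. For these genes, in both genotypes, injury and the dissection step cannot be told apart. So 4 of 10 members passed, 2 higher and 2 lower, where 46.8% of all models passed (24.4% higher and 22.4% lower), a share near the background. Tnxb was at 229, 432 and 425 CPM in injured control nerve, against 849.6, 752 and 839 CPM in intact control nerve. Every injured library was below every intact one, and Tnxb fell by 1.17 on the log2 scale (log2 fold change -1.17, SE 0.19, adjusted p = 0.000132, edgeR). Pdgfra was at 45.7, 67.6 and 71.1 CPM in injured control nerve, against 111, 106 and 76.1 CPM in intact control nerve. These groups did not overlap either, though injured replicate 4 and intact replicate 3 lay close (log2 fold change -0.67, SE 0.18, adjusted p = 0.00655, edgeR). These 2 were the only members without overlap, against 53.3% of all models (27.8% higher and 25.5% lower).

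Pi16 was at 68.8, 372 and 354 CPM in injured control nerve, against 92.95, 27.8 and 65.1 CPM in intact control nerve. The groups overlapped through injured replicate 1 alone (log2 fold change 2.10, SE 0.70, adjusted p = 0.0367, edgeR). Dpt was at 56.6, 218 and 230 CPM in injured control nerve, against 86.0, 21.6 and 55.2 CPM in intact control nerve. It overlapped in the same way, with a log2 fold change of 1.63 (SE 0.59, adjusted p = 0.0497, edgeR). Neither passed under limma-voom, limma-trend, or a fit of the compared groups only. With 1 library left out at a time, Dpt kept its call without control intact replicate 1 or control 5DPI replicate 1 and lost it in the other 10 fits, and Pi16 lost it in 8 of 12 (adjusted p = 0.00852 to 0.134 for Dpt and 0.00645 to 0.116 for Pi16, edgeR). Without control 5DPI replicate 1 and control intact replicate 2, Pi16 (log2 fold change 2.19, adjusted p = 0.0103, edgeR), Dpt (1.66, adjusted p = 0.000439) and Clec3b (0.85, adjusted p = 0.0122) were higher and Tnxb lower (-0.98, adjusted p = 6.67e-06). Pdgfra was then at -0.44 and did not pass (adjusted p = 0.0535, edgeR). The other 5 members, Dcn, Lum, Fbln1, Sox9 and Osr2, passed in neither fit, with log2 fold changes of -0.26, 0.44, 0.06, 0.42 and -0.24 over all libraries. Lum passed without control intact replicate 2 alone (0.62, adjusted p = 0.0226, edgeR).

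In dKO nerve, injury went with higher Lum and Sox9 and lower Tnxb. Every injured dKO library and no intact one belonged to the second library set, so injury and library set cannot be told apart here. So 3 of 10 members passed, 2 higher and 1 lower, where 44.7% of all models passed (22% higher and 22.6% lower). Lum was at 452, 503 and 377 CPM in injured dKO nerve, against 182, 156 and 159 CPM in intact dKO nerve (log2 fold change 1.42, SE 0.22, adjusted p = 0.000148, edgeR). Sox9 was at 66.99, 71.5 and 58.5 CPM in injured dKO nerve, against 30.0, 25.5 and 34.7 CPM in intact dKO nerve (log2 fold change 1.13, SE 0.21, adjusted p = 0.000649, edgeR). For both genes the lowest injured library was well above the highest intact one. Tnxb was at 520.3, 601 and 559 CPM in injured dKO nerve, against 907, 1019 and 919 CPM in intact dKO nerve, and fell by 0.76 on the log2 scale (log2 fold change -0.76, SE 0.18, adjusted p = 0.00414, edgeR). Tnxb was thus the 1 member that passed in the same direction in both genotypes, and it passed in both under each alternative tried.

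Dpt and Pi16 also had no overlap between injured and intact dKO nerve, so that 5 of 10 members had none, against 61% of all models (31.1% higher and 29.9% lower). Pi16 was at 261, 368.5 and 267 CPM in injured dKO nerve, against 78.6, 187 and 72.6 CPM in intact dKO nerve. Its log2 fold change was 1.41 (SE 0.69, adjusted p = 0.129, edgeR) and that of Dpt 1.25 (adjusted p = 0.116). In a fit of the dKO libraries alone, in which the control libraries do not enter the spread, both passed, Dpt with an adjusted p of 0.000496 and Pi16 of 0.0435 (edgeR). Without control 5DPI replicate 1 and control intact replicate 2, 6 members passed: Dpt, Pi16, Lum, Sox9 and Clec3b higher and Tnxb lower. Calls among all models also rose when control 5DPI replicate 1 alone was left out, to 10995 against 9997 over all libraries. The share of all models that passed without both libraries is not given here, so the 6 calls are not read as a result about the members. Pdgfra was at 89.9, 99.4 and 80.1 CPM in injured dKO nerve, against 123, 106 and 94.8 CPM in intact dKO nerve. The groups overlapped and the gene did not pass (log2 fold change -0.26, adjusted p = 0.243, edgeR). Dcn, Fbln1 and Osr2 did not pass in dKO nerve either, with log2 fold changes of -0.12, 0.23 and 0.37.

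Whether injury changed a marker differently in the genotypes was tested by the difference of both injury changes, which uses all 4 groups. Of the 10 members 0 passed edgeR, where 2.9% of all models passed (0.737% higher and 2.17% lower), and limma-voom and limma-trend also called 0. At an unadjusted p under 0.05 there were 2 members. For Lum the log2 fold change with injury was 1.42 in dKO and 0.44 in control nerve, a difference of 0.98 (SE 0.30, adjusted p = 0.115, edgeR). DESeq2 called it (1.02, adjusted p = 0.0291), as did edgeR without control intact replicate 3 (1.23, adjusted p = 0.00576), the intact control library with the lowest Lum. For Sox9 the injury change was 1.13 in dKO and 0.42 in control nerve, a difference of 0.71 (SE 0.29, adjusted p = 0.252, edgeR). For Pdgfra and Tnxb, called lower in control nerve, the differences were 0.40 and 0.41 and did not pass.

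Relatives of the members and other fibroblast genes were read from lists that hold no member. Fibulins and elastic microfibril genes, the family of Fbln1, were higher in dKO nerve at 5 days for 3 of 12 genes and lower for 0, with a median log2 fold change of 0.55, against 3.12% higher among all models. They were Mfap5, a microfibril protein, at 287.5, 292 and 304 CPM in dKO nerve, against 126, 211 and 196 CPM in control nerve (log2 fold change 0.73, adjusted p = 0.00672, edgeR), Fbln2 (0.75, adjusted p = 0.015) and Fbln5 (0.85, adjusted p = 0.0312). None of the 3 overlapped between genotypes. Fbln5 was highest in dKO 5DPI replicate 2, at 139 CPM against 83.3 and 88.3 CPM in the other injured dKO libraries. That library also stood apart by its vessel muscle markers, and their part in the fibulin values was not tested. Without both control 5DPI replicate 1 and control intact replicate 2, 2 of 12 were higher, Mfap5 (0.53, adjusted p = 0.00354, edgeR) and Fbn2 (0.65, adjusted p = 0.0114), while Fbln2 (0.61, adjusted p = 0.0553) and Fbln5 (0.62, adjusted p = 0.066) did not pass. After injury Mfap5 was lower in both genotypes (log2 fold change -1.58 in dKO and -2.27 in control nerve), while Fbn2, which encodes fibrillin-2, was higher in both (3.28 and 2.47). In all, 6 of 12 genes of this list were higher and 3 lower in dKO nerve, and 5 higher and 3 lower in control nerve.

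The small leucine-rich proteoglycans other than Dcn and Lum gave 0 calls between genotypes at 5 days among 9 tested genes (smallest adjusted p = 0.127, edgeR, median log2 fold change 0.36). Without both libraries 1 of 10 tested was higher, Epyc, which encodes epiphycan (log2 fold change 1.00, adjusted p = 0.0204, edgeR), and the difference of injury changes gave 2 calls, Epyc (1.64, adjusted p = 0.0258) and Ecm2 (0.67, adjusted p = 0.0397). After injury 2 were higher and 1 lower in dKO nerve, and 2 higher and 2 lower in control nerve, against 3 and 3 in dKO and 2 and 4 in control nerve without both libraries. Ogn, which encodes osteoglycin, was the largest fall of the list, at 172, 160 and 109 CPM in injured dKO nerve, against 1085, 773 and 916 CPM in intact dKO nerve (log2 fold change -2.65, adjusted p = 6.29e-07, edgeR). In control nerve Ogn had a log2 fold change of -3.14 with injury. Among tenascins, the family of Tnxb, Tnc went the other way from Tnxb. Tnc, the tenascin of wounds, was at 600.3, 455 and 489.7 CPM in injured dKO nerve, against 16.8, 20.2 and 19.1 CPM in intact dKO nerve, and its log2 fold change with injury was 4.78 in dKO and 4.55 in control nerve. No tenascin of the 3 in the list passed between genotypes at 5 days (Tnc 0.08).

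Of 6 PDGF ligands and receptors other than Pdgfra, 1 was higher and 0 lower in dKO nerve at 5 days. It was the ligand gene Pdgfb, at 33.95, 28.8 and 30.0 CPM in dKO nerve, against 12.4, 24.3 and 23.9 CPM in control nerve (log2 fold change 0.62, adjusted p = 0.0499, edgeR). Without both libraries it had 0.36 and did not pass (adjusted p = 0.0576, edgeR), which left 0 calls in this list. With injury Pdgfrb, the receptor of pericytes and fibroblasts, was lower in both genotypes (-1.07 in dKO and -0.82 in control nerve), Pdgfb likewise (-0.51 and -0.84), and Pdgfc, a ligand of Pdgfra, was higher (0.66 and 1.02). Of 5 Sox and odd-skipped factors related to Sox9 and Osr2, Sox5, a partner of Sox9 in cartilage, was higher in dKO nerve at 5 days (log2 fold change 0.60, adjusted p = 0.0216, edgeR) and Sox10, the Schwann cell member of the Sox9 family, was lower (-0.73, adjusted p = 0.0162). Without both libraries Sox8, another member of the Sox9 family, was also higher (1.28, adjusted p = 0.0025, edgeR). Sox10 was at 204.5, 196 and 144 CPM in dKO nerve, against 391, 291 and 223 CPM in control nerve. Sox9 and Sox10 thus differed in opposite directions between the same libraries.

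Of the genes listed as endoneurial fibroblast genes, Cxcl14 differed most between genotypes. Cxcl14, a chemokine gene, was at 624, 735.5 and 574 CPM in dKO nerve at 5 days, against 74.5, 100.2 and 96.4 CPM in control nerve. All 3 dKO libraries were far above all 3 control libraries, with a log2 fold change of 2.83 (SE 0.56, adjusted p = 0.0119, edgeR). In intact nerve it stood at 28.9, 27.0 and 16.1 CPM in dKO, against 30.1, 4.26 and 15.4 CPM in control. Cxcl14 was thus lowest in control intact replicate 2, as were Pi16, Dpt, Clec3b and Fbln1. Of the same list Spon1 was also lowest there, while Abca8a, Abca9, Matn2, Ccl11 and Etv1 were at their highest intact level. Which cells made the Cxcl14 RNA was not tested. In all, 2 of 9 tested genes of this list were higher and 0 lower at 5 days (median 0.15), the other being Abca8a (0.61, adjusted p = 0.025). Of 16 progenitor-type fibroblast genes, which include Mfap5, 2 were higher and 0 lower (median 0.22). Pcolce2, known from epineurial fibroblasts, stood at 38.8, 42.0 and 35.4 CPM in dKO nerve, against 132, 127 and 110.0 CPM in control nerve (log2 fold change -1.67, adjusted p = 0.0896, edgeR). At 5 days Pcolce2 was highest in control replicate 1, where Pi16, Dpt and Clec3b were lowest. Which cells made the Pcolce2 RNA was not tested. Without both libraries 3 progenitor-type genes were higher and 2 lower (median -0.01), the lower ones being Pcolce2 (-1.62, adjusted p = 0.0491, edgeR) and Cd55 (-0.68, adjusted p = 0.0134). Of the endoneurial genes 3 were then higher and 0 lower. Of 14 tested genes of activated fibroblasts 3 were higher and 0 lower (median 0.33): Timp1, an inhibitor of metalloproteinases (0.97, adjusted p = 0.00898), the collagen gene Col12a1 (1.12, adjusted p = 0.025) and Fap (0.54, adjusted p = 0.0286). Fap did not pass without both libraries (0.44, adjusted p = 0.0528, edgeR). With the library set term no gene of these 8 lists of relatives and fibroblast genes passed between genotypes at 5 days, with Cxcl14 at 2.74 (adjusted p = 0.255, edgeR). In intact nerve 1 of their genes passed between genotypes, the activated fibroblast gene Cthrc1, which was lower in dKO nerve. It was the 1 model called among all 22384 and was at low levels. Cthrc1 stood at 1.80, 1.07 and 1.56 CPM in dKO, against 3.51, 5.29 and 3.94 CPM in control intact nerve. No gene of these lists passed there without both libraries.

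**Figure D4:**
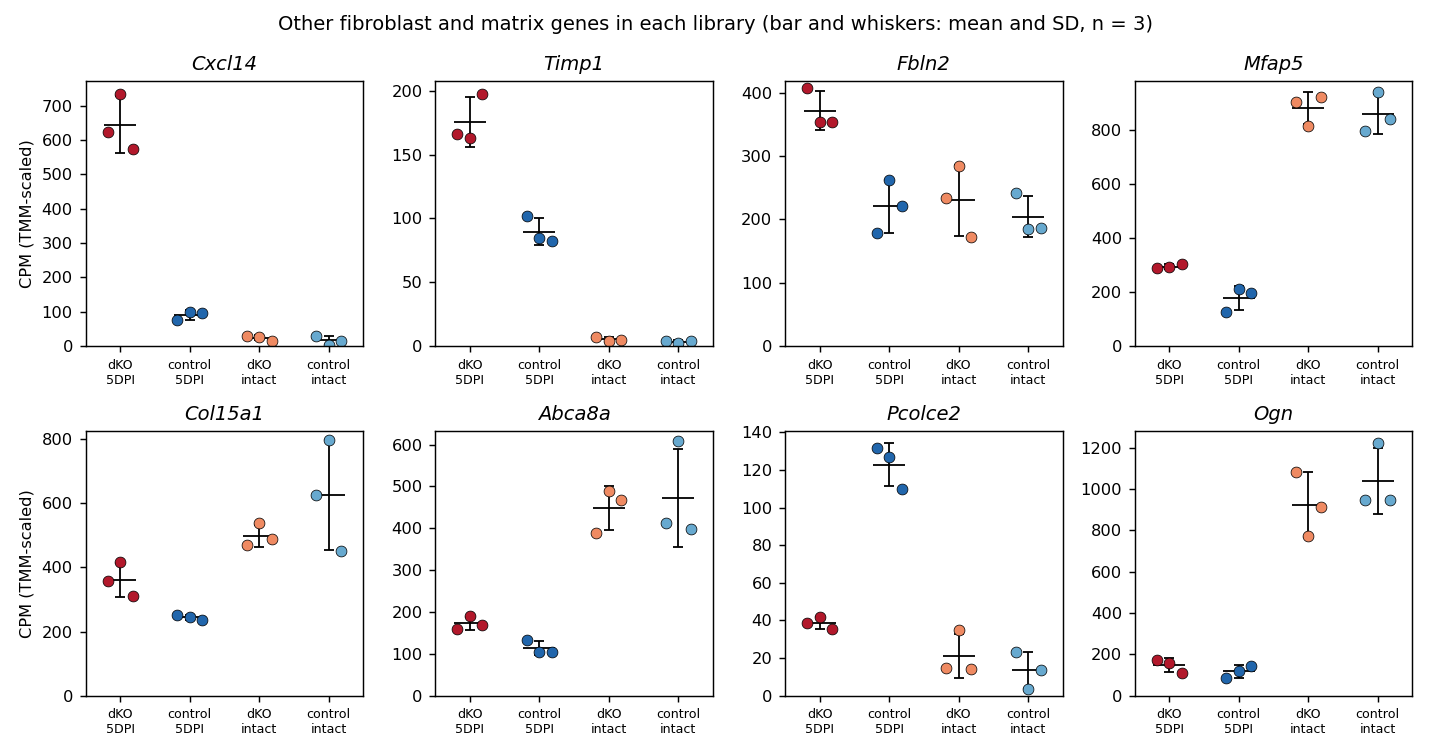
Level of 8 other fibroblast and matrix genes in every library, in TMM-scaled CPM (vertical axis, from 0), by group, with 1 point per library and the group mean with its SD. Cxcl14 sits at 574 to 735.5 CPM in injured dKO nerve and at most at 100.2 CPM in injured control nerve, while Pcolce2 is higher in injured control nerve.

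After injury the activated fibroblast genes were higher for 10 of 14 and lower for 0 in dKO nerve, and higher for 8 and lower for 2 in control nerve, where 22% and 24.4% of all models were higher. Cthrc1 had a log2 fold change of 5.8 in dKO and 4.05 in control nerve, and Timp1 of 5.10 and 4.69. Endoneurial fibroblast genes were higher for 4 and lower for 1 of 9 in dKO nerve, and higher for 3 and lower for 2 in control nerve. Wif1, a secreted Wnt inhibitor, was below 1 CPM in all 6 intact libraries and at 22.5, 26.6 and 28.9 CPM in injured dKO nerve and 30.2, 21.1 and 21.0 CPM in injured control nerve. Progenitor-type genes were higher for 1 and lower for 5 of 16 in dKO nerve, and higher for 3 and lower for 5 in control nerve. Pi16, Dpt and Clec3b, members known from fibroblasts of that kind, had log2 fold changes of 1.41, 1.25 and 0.50 in dKO and 2.10, 1.63 and 0.89 in control nerve, beside list medians of -0.06 in dKO and -0.06 in control nerve. The part of the epineurium, taken off intact nerves, in these values was not tested. Without both libraries the progenitor-type genes were higher for 5 and lower for 6 in dKO nerve (median -0.07), and higher for 7 and lower for 6 in control nerve, where the median was then above 0, at 0.13. The list was thus mixed, and its median does not describe each gene. Those higher in control nerve included Dpp4 (log2 fold change 1.06) and Sfrp2 (1.57), and those lower included Mfap5 (-2.01) and Gsn (-1.06).

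Other cells of the nerve moved in the same libraries, in both directions. At 5 days the myelinating Schwann cell markers were higher in dKO nerve for 9 of 10 and lower for 0 (median 2.18), with a summed level of 4287 to 5359 CPM in dKO and 1520 to 2145 CPM in control nerve. Markers of Schwann cells at large were lower in dKO nerve for 5 of 8 and higher for 0 (median -0.99), with sums of 1607 to 1760 CPM in dKO and 2839 to 4127 CPM in control nerve. Cell division genes were lower for 8 of 8 (median -1.41), with sums of 264.5 to 326.5 CPM in dKO and 694 to 901.5 CPM in control nerve. Endothelial markers were higher for 2 of 10 and lower for 0, with sums of 933 to 1345 CPM in dKO and 690.2 to 809 CPM in control nerve. Pericyte and vessel muscle markers were higher for 1 of 8 and lower for 0, with sums of 2544, 751 and 1082 CPM in dKO nerve. In control nerve these sums were 556 to 746 CPM. The highest sum was that of dKO 5DPI replicate 2 alone, where the muscle gene Myh11 was at 880.5 CPM. Myh11 was at 70.9 and 169 CPM in the other injured dKO libraries. Without both control 5DPI replicate 1 and control intact replicate 2, 3 pericyte and 3 endothelial markers were higher. Macrophage markers were higher for 1 and lower for 1 of 9, and skeletal muscle markers higher for 1 and lower for 0 of 8. Of 8 tendon and cartilage markers, a tissue in which Sox9 is also active, Col2a1 was higher (0.83, adjusted p = 0.00265, edgeR) and 0 were lower, with sums of 1218 to 1319 CPM in dKO and 840.3 to 935 CPM in control nerve, and Thbs4 passed as higher too without both libraries (0.60, adjusted p = 0.0167, edgeR). Of the tendon genes of that list, Scx and Tnmd stayed below 1 CPM in all libraries at 5 days, while Thbs4 was at 1053 to 1096 CPM in dKO and 654 to 777 CPM in control nerve, Mkx at 18.7 to 89.9 and 30.4 to 91.7 CPM, and Comp at 18.8 to 49.3 and 4.79 to 30.4 CPM. Perineurial markers gave 0 calls among 9 (smallest adjusted p = 0.151, edgeR), with sums of 1247 to 1321 and 1145 to 1307 CPM, but 2 were higher without both libraries, Perp (1.07, adjusted p = 0.00276) and Cldn1 (0.61, adjusted p = 0.0204), and fat cell markers 0 among 8 (smallest adjusted p = 0.355), with sums of 3552 to 4595 and 2180 to 3596 CPM. The part of these cells in the higher Tnxb and Sox9 was not tested.

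Genes with profiles most like 3 members over the 12 libraries were picked by Pearson correlation of log2 CPM among 11520 genes. The libraries fall into injured and intact nerve and share the second library set and the library totals, so the values describe these libraries only. For Pdgfra they were Glt25d2 (r = 0.956), Pdgfb (0.904), Iqsec2 (0.903) and Ap4b1 (0.903). For Pi16 they were Cd209f (0.983), Loxl1 (0.979), Lrrn4cl (0.973) and Dpp4 (0.966). For Sox9 they were Dtx4 (0.947), Cacnb2 (0.920), Adcyap1r1 (0.913) and Asns (0.911).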

How the data were processed

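Polyadenylated RNA of 12 sciatic nerve libraries was sequenced, per the labels' protocols, from Ion Torrent total RNA libraries. The submitters' processing notes name mm10, DESeq2 and R 4.2.1, and what they leave out (aligner, counter, strand setting, annotation) is not given in the sources used here. Whole-number counts per gene model make up the deposited raw table. The second deposited table holds a signal, which by its values is the authors' counts divided by 1 size factor per library.

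For the tests on counts, edgeR 4.0.16 (R 4.3.3) was used: filterByExpr (minimum count 10), TMM, robust quasi-likelihood F-tests with 1 mean per group over all 12 libraries, and Benjamini-Hochberg adjustment over 22384 models (threshold 0.05). SE is the log2 fold change divided by the root of F. CPM are TMM-scaled, and values per kb use exon lengths of GENCODE M21. Alternatives used DESeq2 1.42.0, limma 3.58.1 (voom on counts, and trend on the authors' values as log2 of value plus 1), other scalings and filters, fewer groups, a replicate block, a library set term and left-out libraries. The script was tested on simulated data. With 3 libraries against 3 an exact permutation test cannot go below p = 0.1, so none was used. Each pair of replicates differed beyond counting noise.

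The members and lists were chosen with earlier results of these data known. All 10 members are named in every comparison. Of each other list genes with the smallest p are named, and further genes where their levels or fits with libraries left out are described. Likeness took the 4 genes, predicted models left out, with the highest Pearson r and a mean log2 CPM of at least 3. Promoters are from RefSeq and matched 5 of 10 members. P-values set differences of group means against the spread between these libraries. No per-sample column was left unused.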

Additional observations from a re-analysis of the deposited data

How the results depend on the processing

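Of the 10 members, Tnxb fell with injury in both genotypes, and Lum and Sox9 rose with injury in dKO nerve, under every alternative run. In dKO nerve injury coincides with the second library set. The set term rests on control 5DPI replicate 4 alone, so the alternatives cannot tell injury and library set apart there. Calls lost in some fits were those of Tnxb and Sox9 at 5 days and of Pi16, Dpt and, without both libraries that stood apart, Pdgfra with injury in control nerve. Calls gained in some fits were those of Pdgfra at 5 days, of Dpt, Pi16 and Clec3b with injury in dKO nerve, of Clec3b and Lum with injury in control nerve and of Lum in the difference. The cause was not tested. Members called at 5 days (2) were 1 without a low-count filter and with only the compared groups, 0 with the library set term, and 3, with Pdgfra gained, with DESeq2, limma-voom, limma-trend and upper-quartile scaling. With injury in control nerve (4) they were 2 with limma-voom, limma-trend, no filter, only the compared groups and the set term. With injury in dKO nerve (3) they were 5 with only the compared groups and 6 without both control 5DPI replicate 1 and control intact replicate 2. For the difference of injury changes (0) DESeq2 called 1.

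Over all models, calls at 5 days (2707) were 515 with the set term, calls with injury in dKO nerve (9997) were 4299 with it, and calls for the difference (650) were 1096 with DESeq2 and 172 with the set term. Calls in intact nerve (1) were 12 with DESeq2, 0 with limma-voom, 3 with limma-trend, 2 with RLE and upper-quartile scaling, 5 without a filter, 0 with a stricter one or only the compared groups, 3 with the set term and 0 without both libraries.

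Replicate numbers recur between groups, but the labels do not say that a number marks a mouse, and deviations of same-numbered libraries of 1 genotype correlated at -0.0895 to 0.118, so the numbers were not taken as pairs. With the replicate number as a block, members called were 1 at 5 days and 2 with injury in control nerve, and models called were 1386 at 5 days, 0 in intact nerve and 410 for the difference. Pi16 at 5 days (-0.066), Sox9 in intact nerve (0.22) and Osr2 in intact nerve (0.017) changed sign under the block.

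Other log2 fold changes that turned sign, none of them called, were Sox9 in intact nerve (0.0012) and Fbln1 in the difference (-0.18) with limma-voom, Fbln1 in the difference (-0.19) with limma-trend, and Dcn with injury in dKO nerve (0.028) with upper-quartile scaling, which moved the median of all models there to 0.19 against 0.05. The set term turned Pi16 at 5 days (-0.24) and Fbln1 with injury in control (-0.27), with injury in dKO nerve (-0.61) and in the difference (-0.34). Without both libraries Pi16 (-0.29) and Clec3b (-0.062) at 5 days, Osr2 in intact nerve (0.05) and Fbln1 with injury in control nerve (-0.12) turned.

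Leaving out 1 library at a time, members called ranged from 0 to 3 at 5 days, from 2 to 4 with injury in control nerve and from 0 to 1 in the difference, and models called from 1577 to 4225 at 5 days, 0 to 3 in intact nerve and 352 to 1276 in the difference. Fold changes whose range spanned 0 were Clec3b (-0.062 to 0.53) and Pi16 (-0.29 to 0.50) at 5 days, Osr2 (-0.41 to 0.064), Pdgfra (-0.0063 to 0.23) and Sox9 (-0.19 to 0.17) in intact nerve, Fbln1 with injury in control nerve (-0.48 to 0.44), and Dcn (-0.042 to 0.27), Dpt (-0.84 to 0.011) and Fbln1 (-0.25 to 0.68) in the difference. The member with the fewest counts in a library had 364, so the spread between libraries, more than depth, sets the errors.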
